A study of Brassica napus with 27 samples.

Results

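In oilseed rape (Brassica napus) leaves, 159 of 119532 gene entries stood clear of the wild type on the same side in every library of 2 FAH mutant lines, before and after a move to short days, and also met a minimum level and a 4-fold gap of the means. Of these members, 70 were higher and 89 were lower in both lines. The choice was made from the measured values. Each count was divided by the total of its library and scaled to counts per 1000000 (CPM). An entry became a member when all 18 mutant libraries lay above, or all lay below, the 9 wild-type libraries, when the larger of the mutant and wild-type means was at least 1 CPM, and when these means differed at least 4-fold with 0.1 CPM added to each. The gap between mutants and wild type is therefore a description, and no test of it is given.

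The plants were of 3 genotypes. The bnafah line (A52_4) carries mutations in BnaA06FAH and BnaC05FAH, the bnaa06fah line (A17_10) carries a mutation in BnaA06FAH alone, and westar is the wild type of the cultivar Westar. Each mutant genotype is 1 CRISPR line without the transgene, which the labels call both knock-down and null. Leaves were taken at 3 stages: in long days (LD, day 0), and 1 day (SD1) and 2 days (SD2) after transfer to short days, although the labels give the same light period for long and short days. Each of the 9 groups had 3 libraries, 27 in all, with total counts from 49700646 to 58862542. Whether each library is a plant of its own is not stated in the labels, and the p-values refer to the spread among these libraries alone. Replicate 2 of bnafah at SD2 stood apart: its log2 CPM had correlations of 0.757 and 0.798 with the other 2 libraries of its group, the lowest of any pair, and the highest pair was at 0.976. Without it the rule gave 155 entries, all among the 159. The libraries are of whole leaves, in which fewer cells of a type and less RNA per cell cannot be told apart.

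FAH encodes fumarylacetoacetate hydrolase, which ends the breakdown of tyrosine by splitting fumarylacetoacetate into fumarate and acetoacetate. In Arabidopsis, loss of this enzyme is known to cause cell death in leaves under short days. Oilseed rape carries an A and a C subgenome, from the ancestors of Brassica rapa and Brassica oleracea, so most genes have a close relative on the other subgenome. None of the 159 members carries a name other than an identifier in the files or in the RefSeq gene table of the Da-Ae cultivar, and no function is stated for them in the labels, files or reference used. None of the leaf marker names looked up (RBCS, LHCB, CAB, RCA and LHCA) is in the count table, so the labelled tissue was not checked against them.

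Among the 52462 entries that reached 1 CPM in either mean, 215 (0.41%) did not overlap between the mutant and westar libraries, 97 higher in the mutants (0.185%) and 118 lower (0.225%). A 4-fold gap with overlap allowed was met by 501 entries (0.955%), and all conditions together by 159 (0.303%). The gaps of the members were wide. The median ratio of the means was 12.2-fold in the higher members (4.24 to 658) and 14.9-fold in the lower members (4.01 to 160), both with 0.1 CPM added. For 48 members that ratio is set by the added 0.1 CPM, since the low side had no count in any library: 23 higher members had 0 counts in all 9 westar libraries, and 25 lower members had 0 counts in all 18 mutant libraries. With 3 counts per library taken as the floor in their place, the medians were 16.5-fold for the higher members and 18-fold for the lower. Most members are modest in level. The mean on the high side was under 5 CPM for 92 members and at least 20 CPM for 15.

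**Figure D1:**
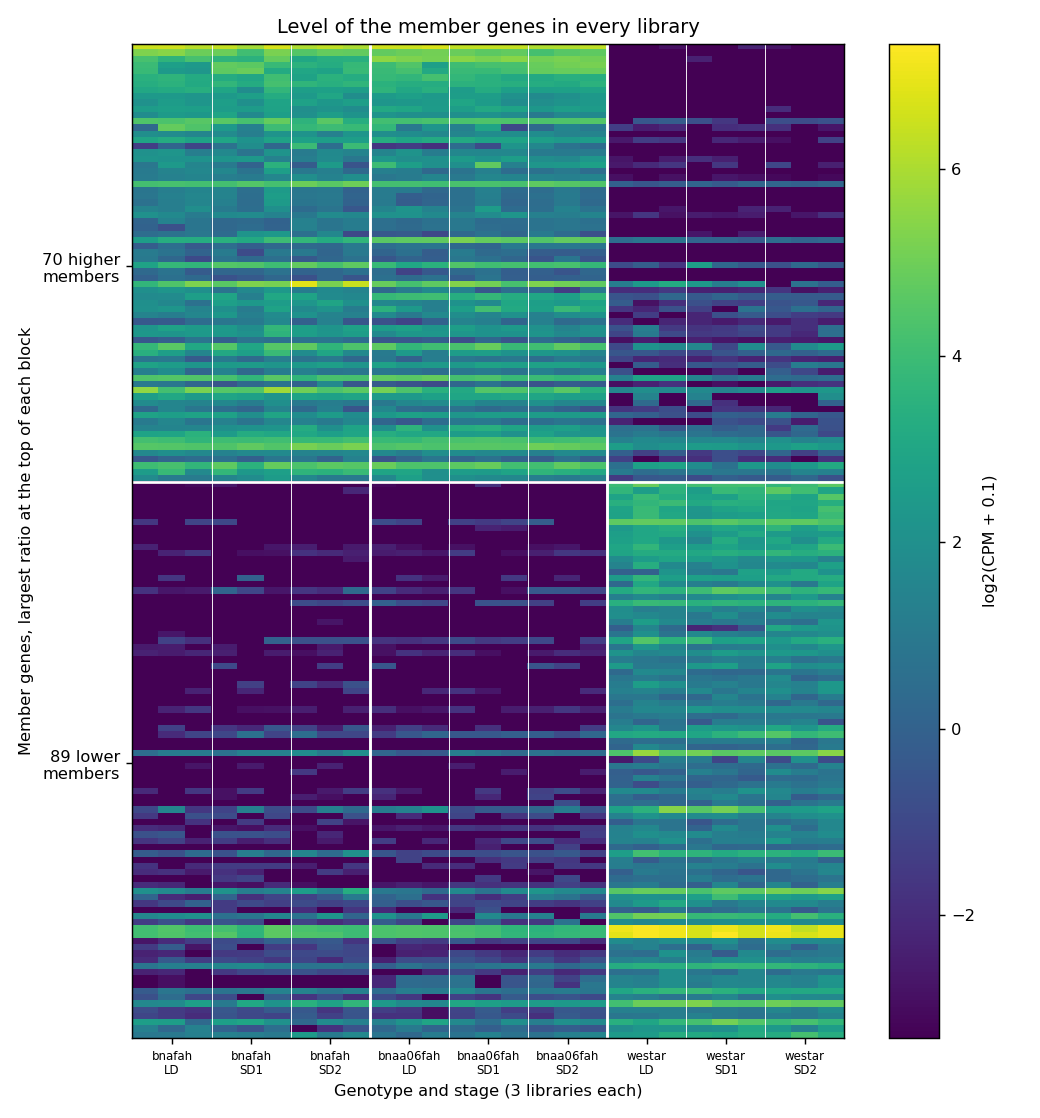
Level of the 159 members (rows) in the 27 libraries (columns, grouped by genotype and stage) as log2(CPM + 0.1), with the 70 higher members above the 89 lower ones and the largest ratio at the top of each block. The bnafah and bnaa06fah blocks look alike from LD to SD2 and differ from the westar block in every row, as the rule requires.

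The separation held by a wide margin for most members and by a narrow one for a few. The lowest library of the high side had at least 2 times the CPM of the highest library of the low side for 116 members, 48 of which had a low side at 0, and under 1.5 times for 26. With 0.1 CPM added to both, these numbers were 106 and 28. The narrowest gap was that of LOC106382928, a lower member: its highest mutant library had 5.47 CPM and its lowest westar library 5.49 CPM. LOC106382928 was also nearest to the 4-fold threshold, at 4.01-fold, followed by LOC106364425 at 4.24-fold and LOC106361286 at 4.25-fold. Just outside stood LOC106434825 at 3.91-fold, LOC106445045 at 3.90-fold and LOC106361579 at 3.89-fold, all higher in the mutants. In the authors' deposited FPKM values (which scale fragments to gene length and depth), 158 of the 159 members again showed no overlap in the same direction, and 136 met the whole rule.

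The rule required every library of every stage to lie on the same side, so ratios of the same sign at each stage are fixed by the choice, and the values by stage are given as a description. In LD, the median log2 ratio of the bnafah line over westar was 3.72 for the higher members and -4.04 for the lower ones. These medians were 3.82 and -3.98 at SD1, and 3.65 and -4.11 at SD2. For the bnaa06fah line over westar they were 3.81 and -4.04 in LD, 3.81 and -4.01 at SD1, and 3.52 and -4.17 at SD2. A 4-fold ratio was met in all 6 combinations of line and stage by 127 members, 52 higher and 75 lower, and in 3 or fewer by 5 members.

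The higher members were led by LOC106375700, a protein-coding gene on chromosome C7. Its libraries had a lowest, median and highest level of 58.0, 78.0 and 102 CPM in bnafah, and 64.8, 82.1 and 103 CPM in bnaa06fah. In westar, 6 of 9 libraries had no count and the highest had 0.111 CPM. LOC106361911, a long non-coding RNA (lncRNA, a transcript with no long reading frame) on C3, had 16.8, 30.5 and 43.9 CPM in bnafah and 18.3, 27.4 and 33.9 CPM in bnaa06fah. It had no count in any westar library, which makes it at least 519-fold higher in the mutants against 3 counts per library. Its neighbour in the Da-Ae gene order, the lncRNA LOC106361912, had 8.93, 11.6 and 18.2 CPM in bnafah and 8.76, 10.3 and 11.4 CPM in bnaa06fah. It too had no count in westar and was at least 199.6-fold higher in the mutants.

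LOC106377454, an lncRNA on A1, had 8.07, 12.2 and 28 CPM in bnafah and 32.6, 36.4 and 46.8 CPM in bnaa06fah. A single westar library had counts of it, at 0.0944 CPM. Here the 2 lines themselves did not overlap. Of the other leading higher members, LOC106369974, LOC106372453 and LOC106352151 have no entry in the RefSeq table. LOC106369974 had 5.17, 14.2 and 27.2 CPM in bnafah and 6.46, 19.0 and 35.7 CPM in bnaa06fah, and was at least 325.5-fold higher in the mutants. LOC106372453, at least 294-fold higher, had 4.83, 9.05 and 29.7 CPM in bnafah and 8.53, 17.9 and 29.8 CPM in bnaa06fah. LOC106352151 was at least 201-fold higher. The 10 largest ratios were completed by LOC106371055, LOC106407489 and LOC106407318, all on C7, at least 143, 99.5 and 94.8-fold higher. These genes had no count in any westar library, so each value is a lower bound.

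The lower members were led by LOC106420154, a protein-coding gene on A9. The highest of its bnafah libraries had 0.0564 CPM and the highest of its bnaa06fah libraries 0.182 CPM, and the median was 0 in both lines, against a lowest, median and highest level of 12.8, 17.4 and 29.6 CPM in westar. LOC106372288, protein-coding on C9, had counts in 1 of 18 mutant libraries, at 0.126 CPM in bnafah, against 6.10, 12.5 and 25.5 CPM in westar. LOC106433823, with no RefSeq entry, had at most 0.395 CPM in bnafah and 0.788 CPM in bnaa06fah, against 19.8, 24.9 and 27.7 CPM in westar. LOC111211869 had no count in bnafah and at most 0.109 CPM in bnaa06fah, against 5.42, 7.75 and 12.4 CPM in westar.

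The other 6 of the 10 leading lower members had no count in any mutant library. LOC106420176 and LOC106419906, protein-coding on A9, were at least 198-fold and 168-fold lower in the mutants, against 3 counts per library. LOC111207967, protein-coding on C7, was at least 189-fold lower. Its westar libraries had 7.53, 10.3 and 15.4 CPM as lowest, median and highest level. LOC106447637, an lncRNA on A9, was at least 159.6-fold lower. LOC106385413, with no RefSeq entry, and LOC111210091, a pseudogene on C9, were at least 117.7-fold and 116-fold lower. Of all 89 lower members, 25 had no count in either line, 4 had none in bnafah but some in bnaa06fah, 6 had none in bnaa06fah but some in bnafah, and 54 had counts in both lines.

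**Figure D2:**
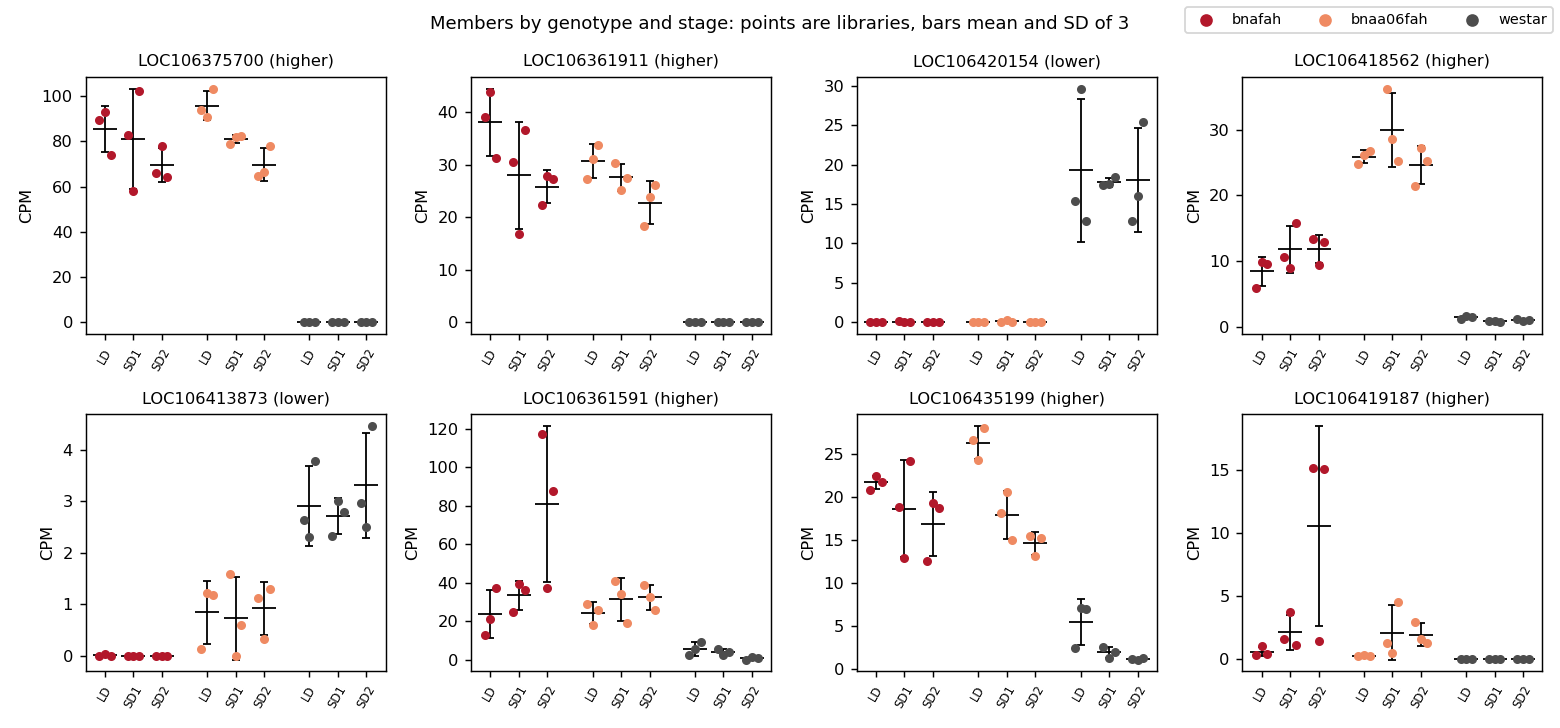
CPM of 8 members in the 3 libraries of each genotype and stage (points), with mean and SD of 3 (bars). LOC106375700 and LOC106361911 are at or near 0 in westar and LOC106420154 in both mutant lines, LOC106418562 and LOC106413873 differ between the lines, and the last 3 panels show genes called between SD2 and LD in at least 1 genotype.

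By annotation, the members were a mixture of coding and non-coding genes. A RefSeq entry was found for 116 of them (73%), against 78.1% of all entries at 1 CPM. Of the 116, 77 are protein-coding, 31 are lncRNAs and 8 are pseudogenes. The lncRNA share was 26.7% among matched members and 3.49% among all matched entries at 1 CPM, and the pseudogene share was 6.9% among members and 2.88% among all. The lncRNAs were mostly higher members, 20 of 31, whereas 54 of the 77 protein-coding members were lower. Counts were absent from the low side for 12 lncRNAs and for 19 protein-coding members. The median of the high-side mean was 3.14 CPM for the lncRNAs and 4.28 CPM for the protein-coding members, not adjusted for gene length. These shares are descriptions, and how far level and annotation depend on each other was not tested.

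Along the chromosomes of the Da-Ae gene table, 113 members and 52882 tested genes have a place. The tested genes are those kept by the low-count filter. Unlike the members, they need not reach 1 CPM, so the shares below compare sets of unlike level. The gene order is that of Da-Ae, another cultivar than Westar. A9 held 25 members, 22 of them lower, which is 22.1% of the placed members against 6.89% of the placed tested genes. C7 held 20 members, 14 of them higher, or 17.7% against 5.61%. C3 held 13 members, 11 lower, or 11.5% against 8.32%. Of the 8 members on A10, 7 were higher. A5 and C6 held none, with 3.89% and 4.64% of the tested genes.

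**Figure D3:**
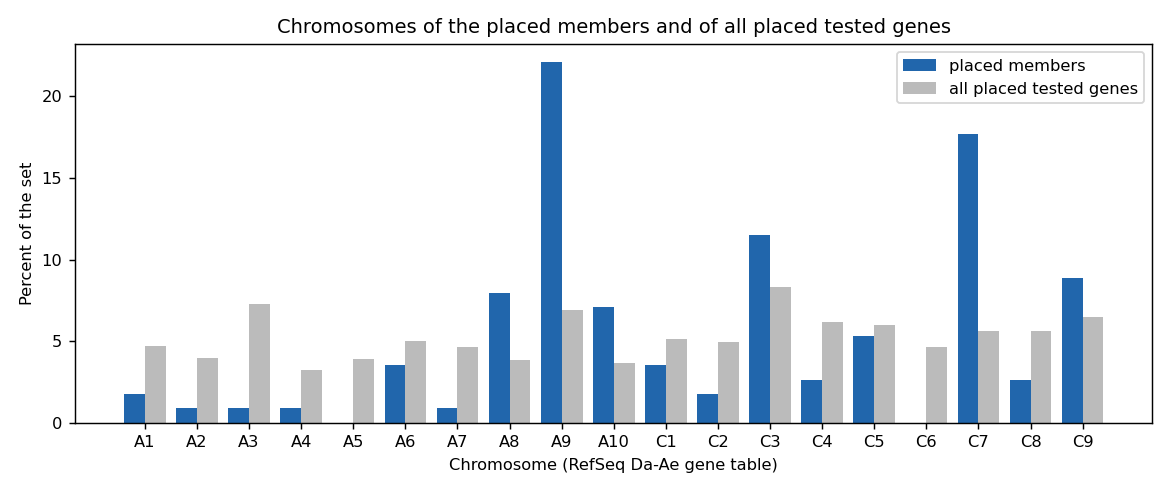
Share of the 113 placed members (blue) and of all 52882 placed tested genes (grey) on each chromosome, in percent of each set. A9 and C7 hold 22.1% and 17.7% of the members, and A5 and C6 hold none.

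Members often lay side by side. With at most 5 other tested genes between neighbours of the same direction, 42 members fell into 12 runs, 31 lower and 11 higher members, and with at most 20 between, 52 members fell into 13 runs. The longest was a run of 17 lower members among 28 consecutive tested genes on A9, from LOC106420128 to LOC106419879, and it did not grow with the wider spacing. Of these 17, 16 are annotated as protein-coding and LOC106419933 as a pseudogene. The summed level of the 17 genes ran from 3.40 to 9.27 CPM over the bnafah libraries and from 1.43 to 3.51 CPM over the bnaa06fah libraries, against 92.5 to 210.2 CPM over the westar libraries. In westar, LD replicate 2 with 210.2 CPM and SD2 replicate 3 with 196.9 CPM stood above the other libraries, of which the highest had 119.8 CPM.

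Within the A9 run the log2 ratio of mutants over westar had a median of -4.75 over the 17 members and ranged from -7.32 for LOC106420154 to -2.35 for LOC106420128. The 11 genes between them that are not members were also mostly low in the mutants, with a median log2 ratio of -1.79, and 9 of the 11 were at -1 or lower. For 7 of the 11 both means were under 1 CPM, where the ratio depends on the added 0.1 CPM. The summed level of the 11 was 10.9 CPM in bnafah and 2.93 CPM in bnaa06fah, against 33.0 CPM in westar. Most of it came from LOC106420162, LOC106420213 and LOC106420127, with means of 16.3, 10.2 and 3.6 CPM in westar. Outside the run, the 20 tested genes before it had a median log2 ratio over westar of -0.05 in bnafah and -0.19 in bnaa06fah, and the 20 after it of 0.03 in bnafah and -0.20 in bnaa06fah. At -1 or lower were 1 gene before and 0 after in bnafah, and 3 before and 4 after in bnaa06fah. The lowest of these was LOC106377020, which is no member, with a mean of 15.8 CPM in bnafah and no count in bnaa06fah, against 16.4 CPM in westar. LOC106420086, the member of the run with the highest westar CPM (not adjusted for gene length), had a lowest, median and highest level of 1.29, 2.16 and 3.79 CPM in bnafah and 0.635, 1.25 and 2.24 CPM in bnaa06fah, against 20.3, 24.9 and 52.5 CPM in westar.

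**Figure D4:**
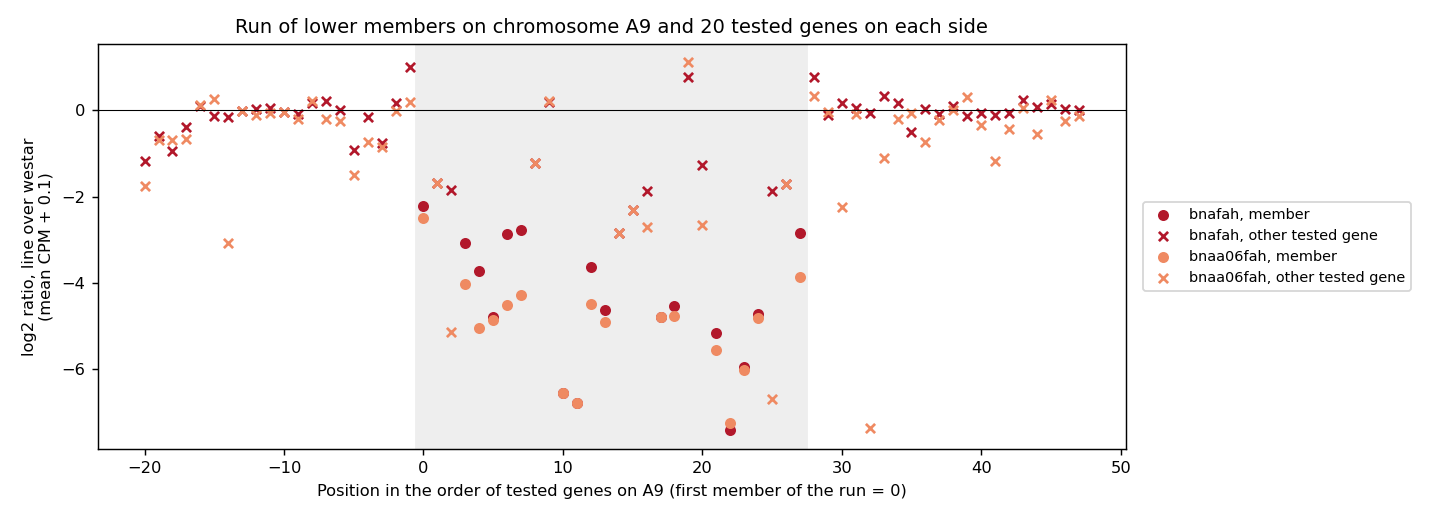
Log2 ratio of each line over westar (mean CPM + 0.1) for the 28 consecutive tested genes of the A9 run (shaded) and 20 tested genes on each side, in Da-Ae gene order. Members (circles) and most other genes in the shaded stretch (crosses) lie below 0 in both lines. The flanking genes have medians of -0.05 and 0.03 in bnafah and of -0.19 and -0.20 in bnaa06fah, where single genes reach -3.06 before and -7.37 after the run.

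At the spacing of at most 5 genes the other runs had 2 or 3 members, and at 20 genes a run of higher members on C7 had 6 and a run of lower members on C3 had 5. On A10, LOC106430846, LOC106430911 and LOC111211029 were higher members among 4 consecutive tested genes. LOC106430911 had 17.6, 18.9 and 31.9 CPM in bnafah and 16.8, 19.2 and 26.2 CPM in bnaa06fah, against 0.624, 0.878 and 1.04 CPM in westar. LOC111211029 had no count in westar and was at least 26-fold higher in the mutants. Its counts were close to those of LOC106430910, a higher member on C9, in every mutant library except bnafah LD replicate 2. There LOC111211029 had 28 counts and LOC106430910 had 137. Shared reads cannot be told apart from separate expression, so LOC111211029 is uncertain as a single gene on A10. A second run on A9 held LOC106434167, LOC106434179 and LOC106434140, all lower. Of these, LOC106434179 had no count in either line, against 2.34, 3.28 and 5.23 CPM in westar. On C7, LOC106375699 lay next to LOC106375700 and was higher as well, on C3 the lncRNAs LOC106361911 and LOC106361912 were neighbours, and a run of 3 lower members on C3 held LOC106384903, LOC106430342 and LOC106430302.

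Some members moved so closely together that they may not be separate measurements. Over pairs of members of the same direction with at least 20 counts in every library of their high side, the ratio of the 2 CPM values varied between libraries by a median of 4.55-fold (5886 pairs), and by under 2-fold in 187 pairs. The steadiest pair was LOC106413873 and LOC106409113, whose ratio varied 1.16-fold over the 9 westar libraries around a median of 0.978. LOC106430911 and LOC111211030 varied 1.17-fold, LOC111214664 and LOC111200063 1.22-fold, and LOC111199698 and LOC111199514 1.26-fold, over the 18 mutant libraries. LOC106419906 and LOC106447637, both among the leading lower members on A9, varied 1.37-fold over the 9 westar libraries around a median of 1.02. The counting method is not stated, and reads shared between near-identical copies cannot be told apart from separate expression, so the members of such pairs are uncertain as single genes.

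The rule treated the 2 mutant lines as a unit, so their difference was open to test, except that it bounds how far apart they can lie. With 0.1 CPM added, the mean levels of the lines differed by under 1.5-fold for 51 and by under 2-fold for 61 of the 70 higher members, with a median absolute log2 difference of 0.26. Of the 64 lower members with counts in a mutant library, 46 differed by under 1.5-fold and 56 by under 2-fold, with a median of 0.29. Many of these are near 0 in both lines, where the added 0.1 CPM narrows the difference, and the other 25 lower members had no count to compare. Averaged over the stages, edgeR's quasi-likelihood test with Benjamini-Hochberg adjustment over 72039 genes called 17 members (10.7%) between bnafah and bnaa06fah, 8 higher and 9 lower in bnafah, beside 5.88% of all tested genes. All 159 members passed the filter on low counts. Without bnafah SD2 replicate 2 there were 16 calls, 14 of them among the 17. Among the called, 4 were higher and 13 were lower members. The 17 may not all be separate genes. They hold the steadiest pair, LOC106413873 and LOC106409113, and also LOC106394552 and LOC106374030, whose ratio varied 1.48-fold over the westar libraries. Most of the 13 called lower members had a mean under 1 CPM in both lines, and some calls rest on levels near the floor. LOC106419790 was at least 1.67-fold higher in bnafah, a call lost in 12 of 21 alternatives. BNAC09G43580D was at least 2.66-fold lower, a call lost in 1. Of the other calls, that of LOC106374030 was lost in 16 of 21 alternatives and that of LOC106449773 in 11. Those of LOC106394552, LOC106434167 and LOC106419862 were lost in 7, 6 and 1. How far the share of calls depends on level was not tested.

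The clearest difference between the lines was that of LOC106418562, a higher member with no RefSeq entry. Its lowest, median and highest level was 5.97, 9.90 and 15.8 CPM in bnafah and 21.5, 26.1 and 36.2 CPM in bnaa06fah, against 0.759, 1.12 and 1.67 CPM in westar. The lines did not overlap, and the log2 difference was -1.38 ± 0.11 (SE, edgeR adjusted p = 1.1e-09). Stage by stage it was -1.62 in LD, -1.35 at SD1 and -1.16 at SD2, with adjusted p-values of 1.99e-06, 3.02e-05 and 0.000196 from edgeR. LOC106377454, given above, was also lower in bnafah, with a log2 difference of -1.49 ± 0.21 (edgeR adjusted p = 5.99e-05). By stage it was called at SD2 (edgeR adjusted p = 0.00273). LOC106418560, an lncRNA on C9, had 2.35, 3.45 and 7.97 CPM in bnafah and 6.58, 12.5 and 16.9 CPM in bnaa06fah, against 0.503, 0.725 and 1.11 CPM in westar. Its log2 difference was -1.30 ± 0.22 (edgeR adjusted p = 0.000211), and the libraries of the lines overlapped.

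Among the lower members, LOC106413873, an lncRNA on C9, was at or near 0 in bnafah and at an intermediate level in bnaa06fah. A single bnafah library had counts of it, at 0.0369 CPM, and bnaa06fah had 0, 1.13 and 1.59 CPM, against 2.31, 2.79 and 4.46 CPM in westar. The test called it lower in bnafah (edgeR adjusted p = 1.2e-05). LOC106409113, the other of the steadiest pair, had almost the same values and an edgeR adjusted p of 2.15e-05. LOC106366760, protein-coding on C3, had 0, 0 and 0.467 CPM in bnafah and 0, 0.380 and 0.900 CPM in bnaa06fah, against 10.4, 11.9 and 14.6 CPM in westar, and was called lower in bnafah over the mean of the stages (edgeR adjusted p = 0.00116). That difference came from LD and SD1, where bnafah had no count. At SD2 it had 0.453, 0.367 and 0.467 CPM in bnafah and 0.304, 0 and 0.294 CPM in bnaa06fah, which did not overlap and were the other way round (log2 difference 0.99 ± 0.77, edgeR adjusted p = 0.474).

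Other lower members were higher in bnafah than in bnaa06fah, that is, nearer to westar. LOC106416899, protein-coding on C4, had 0, 0.284 and 0.756 CPM in bnafah and counts in 2 of 9 bnaa06fah libraries, the higher at 0.127 CPM, against 0.878, 1.87 and 2.54 CPM in westar (edgeR adjusted p = 0.000406). LOC106419812, in the A9 run, had 0.535, 1.21 and 4.04 CPM in bnafah and 0.313, 0.490 and 0.689 CPM in bnaa06fah, against 6.25, 11.3 and 17.5 CPM in westar. Its log2 difference was 1.51 ± 0.29 (edgeR adjusted p = 0.00117). LOC106420086 and LOC106419879 of the same run were called in the same direction, with edgeR adjusted p-values of 0.00525 and 0.00395. In the A9 run 13 of 17 members had the higher mean in bnafah. This is a description, since the genes are neighbours and most had means under 1 CPM in both lines. Calls over all tested genes leaned the same way, with 2701 higher and 1534 lower in bnafah over the mean of the stages. Of the 17 members of the run, 4 had counts in bnafah but none in bnaa06fah, and 0 had counts in bnaa06fah but none in bnafah. Of these 4, LOC106419933 and LOC106419795 rested on 3 counts in a single bnafah library each, which is at the floor. A further 3 of the 17 had no count in either line.

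**Figure D5:**
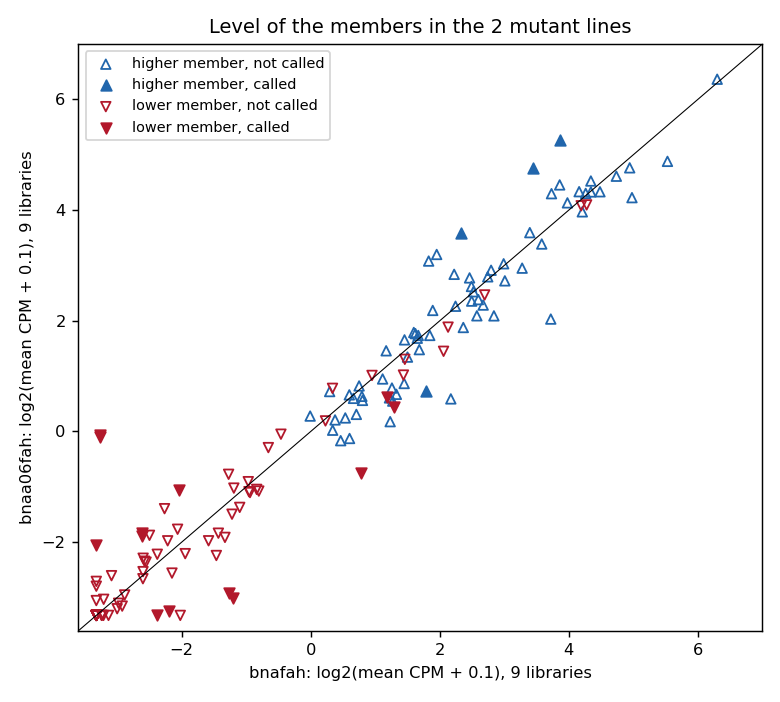
Mean level of each member in bnafah (horizontal) and bnaa06fah (vertical), log2(mean CPM + 0.1) over 9 libraries each, with the line of equal levels. Filled symbols are the 17 members called between the lines over the mean of the stages (edgeR adjusted p under 0.05), and most members lie close to the line.

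Stage by stage, 5 members were called between bnafah and bnaa06fah in LD, all lower in bnafah (beside 2.13% of all tested genes), 5 at SD1 with 1 higher and 4 lower (2.15%), and 11 at SD2 with 3 higher and 8 lower (7.5%). In LD the calls besides LOC106418562 included LOC106366760, at least 10.9-fold lower in bnafah, where it had no count, than in bnaa06fah (edgeR adjusted p = 0.00427). At SD2 LOC106419812 was higher in bnafah with a log2 difference of 2.28 (edgeR adjusted p = 0.00578). LOC106413873 had no count in bnafah at SD1 or SD2, and its mean was at least 13.3-fold and 17.4-fold lower there than in bnaa06fah (edgeR adjusted p = 0.0123 and 0.00396). At SD1 bnaa06fah replicate 2 had no count either, so the libraries of the lines overlapped. The SD1 call was lost without any 1 of the 3 bnafah libraries or bnaa06fah replicate 1 (highest adjusted p = 0.0714). LOC106418560 was lower in bnafah in LD by a log2 difference of -1.85 ± 0.38 (edgeR adjusted p = 0.00501, and 0.0528 without bnafah LD replicate 2). LOC106416899 and LOC106419789 had no count in bnaa06fah at SD2 and were at least 7.10-fold and 6.07-fold higher in bnafah (edgeR adjusted p = 0.0124 and 0.0244). The call of LOC106416899 was lost without bnaa06fah SD2 replicate 3 (adjusted p = 0.0537), and that of LOC106419789 without any of the bnaa06fah libraries or bnafah replicate 1 or 3 (highest adjusted p = 0.0819). LOC106419862, with no count in bnaa06fah at SD1, was at least 9.25-fold higher in bnafah (edgeR adjusted p = 0.047), a call lost without any 1 of the 6 libraries and with the replicate block. The mean of LOC106366760 was at least 6.49-fold lower in bnafah at SD1, where it had no count (edgeR adjusted p = 0.0173). Replicate 1 of bnaa06fah had no count there either. The call was lost without any 1 of the bnafah libraries or bnaa06fah replicate 2 or 3 (highest adjusted p = 0.0755). DESeq2 called 10 members in LD, 10 at SD1 and 18 at SD2. The counts rested partly on single libraries. Without bnafah LD replicate 2 there were 2 calls in LD, and without bnafah LD replicate 1 or bnaa06fah LD replicate 3 there were 3. At SD1 leaving out any of the 6 libraries left 1 to 3 calls, with LOC106418562 called each time, and at SD2 there were 7 without bnaa06fah SD2 replicate 3. Without bnafah SD2 replicate 2, the library that stood apart, there were 13 at SD2, 9 of them among the 11.

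The response of the members to the transfer could be tested within each genotype, since the rule compared none of the stages. In bnafah, 7 of 159 were called, 3 higher and 4 lower at SD2 (4.4%, beside 15.7% of all tested genes). In bnaa06fah, 5 were called, all lower at SD2 (3.14%, beside 9.97%), and in westar 4 were called, 1 higher and 3 lower (2.52%, beside 5.87%). DESeq2 called 20 members in bnafah, 15 in bnaa06fah and 9 in westar. Members with no count in any library of a genotype are in the 159 but could not be called there. These were 25 lower members in both lines, a further 4 in bnafah and 6 in bnaa06fah, and 23 higher members in westar. The rule favours genes that are steady across stages, because their libraries of all stages must stay on the same side, so these shares are not a result about the members.

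In bnafah, LOC106419187, a protein-coding higher member on A10, was called higher at SD2. Its bnafah libraries had 0.297, 0.977 and 0.369 CPM in LD, 1.54, 3.70 and 1.08 CPM at SD1, and 15.2, 1.36 and 15.2 CPM at SD2, so replicate 2 of SD2 stood apart from the other two. The log2 change from LD to SD2 was 3.99 ± 0.92 (SE, edgeR adjusted p = 0.00868). The bnaa06fah libraries had 2.94, 1.57 and 1.21 CPM at SD2 and 0.225, 0.272 and 0.181 CPM in LD, and no westar library had a count. Among lower members in bnafah, LOC106361286, protein-coding on A8, had 0, 0.192 and 0.557 CPM at SD2 against 2.43, 1.12 and 2.51 CPM in LD (log2 change -3.30 ± 0.66, edgeR adjusted p = 0.00239). LOC106366760 had counts in all 3 SD2 libraries, at 0.453, 0.367 and 0.467 CPM, and none in LD, at least 8.02-fold higher at SD2 (edgeR adjusted p = 0.00622). These 3 calls held with each library left out. LOC106419789, a lower member of the A9 run, had 0.348, 0.140 and 0.521 CPM at SD2 and no count in LD, at least 6.29-fold higher at SD2 (edgeR adjusted p = 0.0162), a call lost without replicate 1 of LD or replicate 3 of SD2 (highest adjusted p = 0.0569). LOC106361911 was lower at SD2, with 22.3, 27.9 and 27.4 CPM against 39.2, 43.9 and 31.2 CPM in LD (log2 change -0.80 ± 0.22, edgeR adjusted p = 0.0224). That call was lost, with adjusted p-values up to 0.128 over the alternatives, without replicate 1 or 2 of LD or replicate 1 or 3 of SD2. LOC106394552, a lower member on C1 with 0.0116 ± 0.0201 CPM at SD2 and 0.0954 ± 0.0838 CPM in LD (SD, n = 3 each), was at or near the floor of 3 counts in both stages, and its call (edgeR adjusted p = 0.0423) was lost in 6 of 9 alternatives, the replicate block among them. Without bnafah LD replicate 3 or SD2 replicate 2 the number of calls in bnafah was 14 or 16, in the case of SD2 replicate 2 with 5 of the 7 among them, and without LD replicate 1 or SD2 replicate 3 it was 4 or 3.

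In westar, the 4 members called between SD2 and LD were all higher members. They were 5.71% of the 70 higher members, beside 5.87% of all tested genes, and 0 of the 89 lower members were called. These shares, too, are not a result about the members. LOC106435199, protein-coding on C5, had 1.27, 1.15 and 1.31 CPM at SD2 against 2.45, 7.12 and 7.04 CPM in LD (log2 change -2.26 ± 0.31, edgeR adjusted p = 0.00257), and it stayed called with each library left out. LOC106361477, protein-coding on A8, had 0.633, 1.09 and 0.392 CPM at SD2 against 1.58, 2.05 and 1.68 CPM in LD (edgeR adjusted p = 0.0153). LOC106361591, also protein-coding on A8, had 0, 1.54 and 0.821 CPM at SD2 against 2.19, 5.29 and 9.16 CPM in LD (edgeR adjusted p = 0.0266). LOC106443199, an lncRNA on A3, was the call in the other direction, with 0.528, 0.0763 and 0.541 CPM at SD2 and 0.102, 0 and 0 CPM in LD (edgeR adjusted p = 0.0499). The last 3 calls were each lost without replicate 2 or 3 of LD or replicate 1 or 3 of SD2, with adjusted p-values up to 0.0823, 0.138 and 0.201 over the alternatives. The call of LOC106443199 was also lost without the filter on low counts and with the replicate block, so in 6 of 9 alternatives. Without westar LD replicate 3 or SD2 replicate 1 there was 1 call in westar.

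In bnaa06fah the calls were LOC106380990, LOC111206482, LOC106435199, LOC106361477 and LOC106430342. LOC106380990 had 11.6, 13.4 and 14.7 CPM at SD2 against 20.2, 21.1 and 20.7 CPM in LD (log2 change -0.81 ± 0.20, edgeR adjusted p = 0.0163), and LOC111206482, an lncRNA on A1, had nearly the same values. The ratio of these 2 varied 1.46-fold over the 9 westar libraries around a median of 1.005, so the 5 calls may not all be of separate genes. LOC106435199 had 15.5, 13.1 and 15.2 CPM at SD2 against 26.6, 24.2 and 28 CPM in LD, a log2 change of -1.01 ± 0.29 (edgeR adjusted p = 0.0286). None of the 5 calls held with each library left out, and leaving out 1 library of LD or SD2 left 0 to 3 calls, the 0 without LD replicate 2. The SD2 and LD libraries did not overlap for any of the 5.

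Whether a line changed differently from westar between LD and SD2 was tested as a difference of changes. For bnafah minus westar, 6 members were called, 4 with a positive and 2 with a negative difference (3.77%, beside 6.17% of all tested genes). The rule favours gaps to westar that are steady across stages, so the shares called for either line are not a result about the members. DESeq2 called 12. LOC106361591 had the smallest adjusted p. Its bnafah libraries had 118, 37.1 and 87.7 CPM at SD2 and 13, 21.3 and 37.4 CPM in LD, and the westar values given above were lower at SD2. The difference was 4.36 ± 0.98 on the log2 scale (edgeR adjusted p = 0.0227). For LOC106435199 the difference was 1.66 ± 0.41 (edgeR adjusted p = 0.0269), with 12.5, 19.3 and 18.7 CPM at SD2 and 20.9, 22.4 and 21.7 CPM in LD in bnafah, so that the means were lower at SD2 in both genotypes and the log2 drop was larger in westar. For LOC106361286 it was -3.27 ± 0.86 (edgeR adjusted p = 0.0313), with 5.22, 2.56 and 6.12 CPM at SD2 and 3.67, 4.73 and 4.65 CPM in LD in westar. None of the 6 calls held with each library left out, and the highest adjusted p over the alternatives was 0.0812 for LOC106361591, 0.0862 for LOC106435199 and 0.0981 for LOC106361286 (edgeR or DESeq2). There were 0 calls without bnafah LD replicate 1, bnafah SD2 replicate 1, westar LD replicate 3 or westar SD2 replicate 3, 1 without bnafah SD2 replicate 3 or westar SD2 replicate 1, 2 without bnafah LD replicate 2, 3 without westar LD replicate 2, and 12, with all 6 among them, without bnafah SD2 replicate 2. For bnaa06fah minus westar, edgeR and DESeq2 called 0 members, and 13 members had an unadjusted edgeR p under 0.05. edgeR also called 0 of all 72039 genes there (0%), of which 6185 had an unadjusted p under 0.05.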

How the data were processed

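Leaf RNA was extracted with TRIzol and sequenced as TruSeq v2 libraries on an Illumina HiSeq, per the labels. The submitters' processing notes name Trim Galore and HISAT2, without versions. The build, the counting method and the use of strand are not given in the sources that were available. The authors deposited raw counts for each gene, which were used unchanged. The FPKM table was also made by the authors, and served only to recompute the rule.

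From the counts, CPM values were computed on library totals, leaving out 1 of 119533 rows that names no gene (at most 2.61e-05% of a library's counts). Samples were grouped by genotype, stage and replicate in their labels. Total counts of 49700646 to 58862542 put 3 counts at 0.0510 to 0.0604 CPM, a floor that covers counting error only. One edgeR fit (version 4.0.16, R 4.3.3) held all 27 libraries in 9 groups, with the filter by group, which kept 72039 genes, TMM factors of 0.862 to 1.14, robust quasi-likelihood dispersions and 18 residual degrees of freedom. It was tested on simulated data. P-values were adjusted by Benjamini-Hochberg within each contrast, over all tested genes, and called under 0.05, and errors of log2 differences are standard errors. Alternatives were DESeq2 1.42.0, no filter on low counts, the replicate number as a block, each library left out, and other settings of the rule.

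The members, lists and tests were chosen with earlier results of these data known. Text names the 10 higher and 10 lower members of largest ratio, the 3 genes on each side of the 4-fold threshold, per test the 3 members of smallest adjusted p in each direction, and the ends of the longest run. Members of steady pairs and of other runs, and other genes named as examples, were chosen after their values were seen. No member carries a name and the reference gives no product descriptions, so the lists of pathways and markers could not be applied to the members. Of the planned lists, the one of lncRNAs, by annotation, could be applied. RefSeq identifiers and gene order come from the Da-Ae assembly, and no coordinates are printed because the files name no build. Promoter and protein sequences were planned but not used here. The edited genes are not analysed here.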

Additional observations from a re-analysis of the deposited data

Results flagged for a closer look

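For 6 members the change from LD to SD2 differed between bnafah and westar in the test of that difference (edgeR adjusted p under 0.05). On the log2 scale the difference, bnafah minus westar, was 4.36 for LOC106361591, 1.66 for LOC106435199 and -3.27 for LOC106361286. It was 7.61 for LOC106366760 and 7.39 for LOC106419789, lower members with no count in any bnafah LD library, and -5.47 for LOC106417598, a higher member with no count in any westar LD library. These last 3 values are fitted against groups at 0, depend on the prior count and are no measure of size. LOC106366760 had 0.453, 0.367 and 0.467 CPM in bnafah at SD2, against 11.9, 11.6 and 13.4 CPM in westar at SD2. LOC106419789 had 0.348, 0.140 and 0.521 CPM in bnafah at SD2, against 2.85, 2.48 and 4.87 CPM in westar. LOC106417598 had 3.75, 4.35 and 3.56 CPM in bnafah at SD2, and of the westar SD2 libraries a single one had counts, at 0.158 CPM. The edgeR adjusted p was 0.0285 for LOC106366760, 0.0464 for LOC106419789 and 0.0405 for LOC106417598, and each call was lost when some single libraries were left out, with adjusted p-values up to 0.0937, 0.123 and 1 over the alternatives.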

How the results depend on the processing

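The rule gave 159 members, and 155 to 168 with 1 library left out. With 1 CPM in place of 0.1 CPM added it gave 65, and with a level of 5 CPM 67, all of them among the 159. It gave 198 at 2-fold, 111 at 8-fold, 191 at a level of 0.1 CPM, 157 with TMM scaling (156 shared) and 140 in the authors' FPKM (136 shared). DESeq2 called more members than edgeR: 10 between the lines in LD, 10 at SD1 and 18 at SD2, 20 between SD2 and LD in bnafah, 15 in bnaa06fah and 9 in westar, and 12 for bnafah minus westar. Without the filter on low counts, 3 members were called between SD2 and LD in bnaa06fah. With 1 library left out, edgeR called 2 to 5 members between the lines in LD, 1 to 3 at SD1, 7 to 13 at SD2 and 12 to 20 over the mean of the stages. It called 3 to 16 between SD2 and LD in bnafah, 0 to 3 in bnaa06fah and 1 to 6 in westar, 0 to 12 for bnafah minus westar and 0 for bnaa06fah minus westar. Replicate numbers did not pair the libraries: same-numbered libraries had correlations of their deviations from -0.56 to 0.539, and 9 of 27 libraries were closest to their own number. With the replicate number as a block, the counts were 5 in LD, 4 at SD1, 10 at SD2, 16 over the mean, 5, 4 and 4 between SD2 and LD in bnafah, bnaa06fah and westar, and 4 for bnafah minus westar. Of 60 calls of a member in a comparison, 23 were kept under every alternative, 37 were lost under at least 1, 9 with the block, 10 without the filter and 0 with DESeq2, and 0 were reversed. The cause was not tested. Depth limits the lowest values: at 3 counts per library, levels under 0.0510 to 0.0604 CPM could not be told from 0.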
